A study of Mus musculus with 6 samples.

Results

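A group of 2542 chromatin regions was described over the days that ATDC5 mouse cartilage precursors were differentiated. By rank, their peaks were weak or unlisted at day 0, of middling strength at day 3, and among the strongest accessible sites at day 10. They were chosen from 73933 regions, built by merging the overlapping 50000 strongest peaks of all 6 deposited lists on chromosomes 1 to 19 and X. Peaks were ordered within each library by the fold over background that the authors list. A region was a member when both Day10 libraries had one of their 50000 strongest peaks in it, neither Day0 library had one of its 100000 strongest, at least 1 Day3 library had one of its 100000 strongest, and the Day3 libraries did not both have one of their 50000 strongest. The measured folds thus chose the members, and every fold and rank below is a description of that choice unless it is said to come from libraries that took no part in it.

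Open chromatin was measured by ATAC-seq, where an enzyme, Tn5, cuts accessible DNA and tags it for sequencing. ATDC5 is a mouse cell line that serves as a model of cartilage formation, and per the labels all groups were this line, described as a pre-chondrocyte. The Day0 group is labelled control, and the Day3 and Day10 groups are labelled differentiation. Per the labels' protocols, cells for all time points were spotted as droplets, and bGP and L-acorbate-2-phosphate (spelled as labelled) were the agents added for differentiation; the protocols also describe undifferentiated cultures kept by passaging, and do not say which of the 2 descriptions holds for Day0. Each group held 2 libraries, described as independent biological replicates, and the values of both are given.

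Cartilage cells arise from mesenchymal precursors that condense, switch on cartilage matrix genes and later become hypertrophic. Such a change of state is known to involve regulatory DNA, promoters and enhancers, where nucleosomes are displaced as transcription factors bind, and ATAC-seq reads that displacement as a peak. A peak that is present but weak can mean that few cells have the site open, or that the site is open for less of the time in each cell, and bulk libraries cannot tell these apart.

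The Day10 lists held 380813 and 389571 peaks on these chromosomes, against 164237 and 164579 at Day0 and 177334 and 176710 at Day3. Equal ranks did not stand for equal folds. Rank 50000 corresponded to 16.9 and 17.3 in the Day0, 14.5 and 15.01 in the Day3, and 17.8 and 17.7 in the Day10 libraries. Rank 100000 corresponded to 7.57 and 7.51, to 6.67 and 7.23, and to 10.1 and 10.2, in the same order. The smallest listed peak was 68 and 72 bases wide at Day10 and 87 to 90 bases in the other libraries. Peak names contain the word lysis in the Day3 files and in no others. Day and any separate handling of a day's libraries cannot be told apart. Positions are those of the lists, taken to be GRCm39, and counted from 1. Regions were not assigned to genes, because the gene table at hand is of another build.

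Gained regions, defined as strong in both Day10 libraries and out of the 100000 strongest in both Day0 libraries, numbered 8375, or 11.3% of all regions. The 2542 intermediate members were 3.44% of all regions and 30.4% of the gained ones. Another 5553 gained regions (66.3%) had not come within the 100000 strongest by Day3, and 280 (3.34%) were already strong in both Day3 libraries. Under these limits, gained regions were therefore more often out than intermediate at Day3. These shares follow from the rank limits, and no test was made of them. Out at Day3 does not mean without a peak. Of those regions 35.1% and 34.4% had a listed peak in the Day3 libraries, against 13.7% and 14.0% in the Day0 libraries. With the same fold limits in every library, 16.9 and 7.57, there were 6590 regions out, 2439 intermediate and 124 strong at Day3.

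The members' median fold, as the authors give it, was higher on each later day. At Day10 their median fold was 23.5 in replicate 1 and 23.7 in replicate 2, with a range from 17.8 to 45.6 and from 17.7 to 46.5. The median at Day3 was 8.90 in both libraries, with quartiles of 7.78 and 11.1 in each. At Day0 only 1319 and 1314 members, 51.9% and 51.7%, had any listed peak, and the medians over those were 5.83 and 5.78. All 2542 members had a listed peak in Day3 replicate 1 and 2541 in Day3 replicate 2. The fold stands for a median pileup of 15 at the peak summit in both Day3 libraries, and of 48 and 50 at Day10. These pileups are not scaled to the background, which was 0.799 and 0.798 at Day3 and 1.08 and 1.15 at Day10. Whether the pileup counts reads or fragments is not given. Where a Day0 peak was listed its median pileup was 9 in both libraries, which is a thin basis for the level of a single region.

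**Figure D1:**
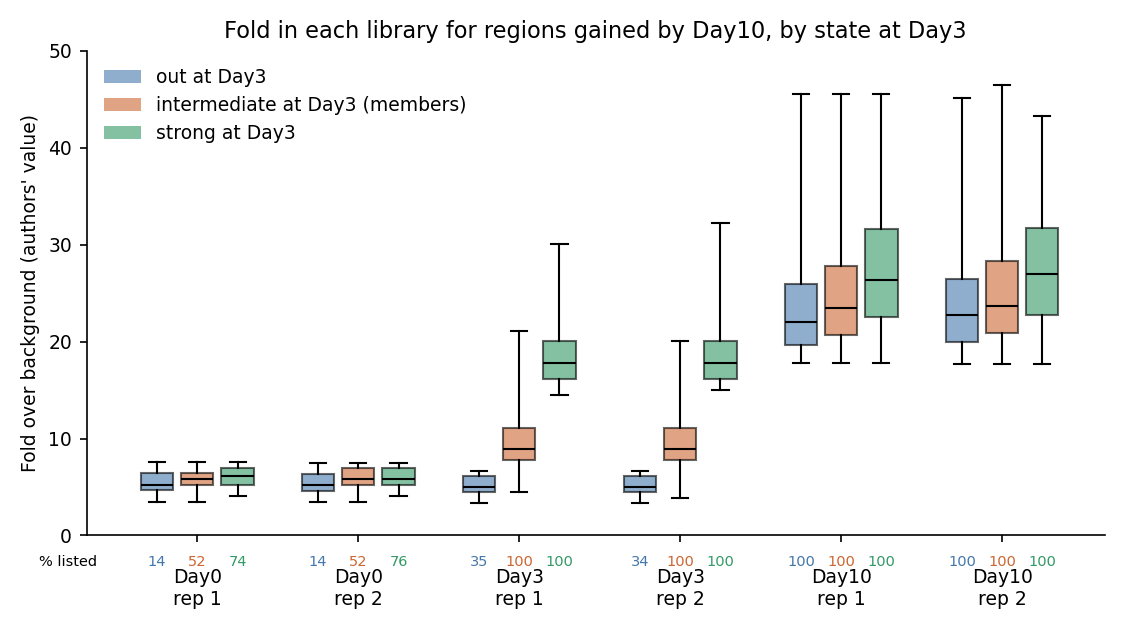
Fold over background (vertical axis, the authors' value) in each of the 6 libraries for gained regions that were out, intermediate or strong at Day3. Boxes span the quartiles with the median as a line, whiskers reach the lowest and highest value, only regions with a listed peak enter a box, and the numbers under the axis give the percent listed; the members' medians step from 5.83 and 5.78 over 8.90 in both Day3 libraries to 23.5 and 23.7.

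The members entered the intermediate class in 3 ways. Most of them, 1866 or 73.4%, ranked between 50000 and 100000 in both Day3 libraries, with a median Day3 fold of 9.45. In 528 members (20.8%) only 1 Day3 library had a peak within the 100000 strongest, replicate 1 in 271 and replicate 2 in 257, and the median Day3 fold was 6.95. The remaining 148 (5.82%) were strong in 1 Day3 library, replicate 1 in 75 and replicate 2 in 73, with a median of 14.6. Neither Day3 library therefore supplied most of the one-sided members. The median Day10 fold was 23.6, 22.9 and 24.7 in these 3 subgroups, so they differed far more at Day3, where the rule separates them, than at Day10.

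Over all members, the mean Day3 fold was a median of 38.0% of the mean Day10 fold, with quartiles of 31.2% and 47.2% and a full range from 15.3% to 83.1%. Taken from replicate 1 libraries alone the median was 38.6%, and from replicate 2 libraries alone 37.8%. As pileup divided by background, the Day3 level was 43.2% of the Day10 level, and in the authors' -log10 p it was 24.6%. On the log2 scale the rise from Day3 to Day10 had a median of 1.40, while the median absolute difference between libraries of one day was 0.17 at Day3 and 0.08 at Day10. The rule chose on these folds, so its limits bear on the rise and on both differences.

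For the 1171 members listed in both Day0 libraries the earlier step can be given as well. Their fold rose from Day0 to Day3 by a median of 0.70 on the log2 scale and from Day3 to Day10 by 1.32. In 1060 of them (90.5%) both Day3 folds were above both Day0 folds. The rest did not rise in every pair of libraries, and the lowest change of the mean fold was -0.38 on the log2 scale. The rule required a better rank at Day3 than at Day0 in at least 1 Day3 library, but not a higher fold. It held the Day0 folds to at most 7.57 and 7.51. A Day3 peak within the limit had at least 6.67 in replicate 1 or 7.23 in replicate 2. These limits favour a rise, so the share of 90.5% is not free of the choice. Here the later step was the larger. The rule required Day0 and Day10 to lie far apart and set limits on Day3, and only members with listed Day0 peaks enter. The sizes of both steps thus depend on these limits, and nothing is read from their order.

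Strength at Day3 and strength at Day10 were nearly unrelated among the members. Across the 2541 members listed in all Day3 and Day10 libraries, Pearson's r of the log2 folds was 0.77 for the pair of Day3 libraries and 0.91 for the pair of Day10 libraries, but 0.07 to 0.08 between a Day3 and a Day10 library. These are correlations across regions, which are not independent replicates, and the rule narrows the range of folds on both days. The median Day3 fold was 10.0 in members with a mean Day10 rank within 5000 and 9.17 in those ranked between 40000 and 50000, while the Day10 medians of the same classes were 40.4 and 19.3. The Day3 level accordingly made up 25.03% of the Day10 level in the first class and 47.1% in the last.

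**Figure D2:**
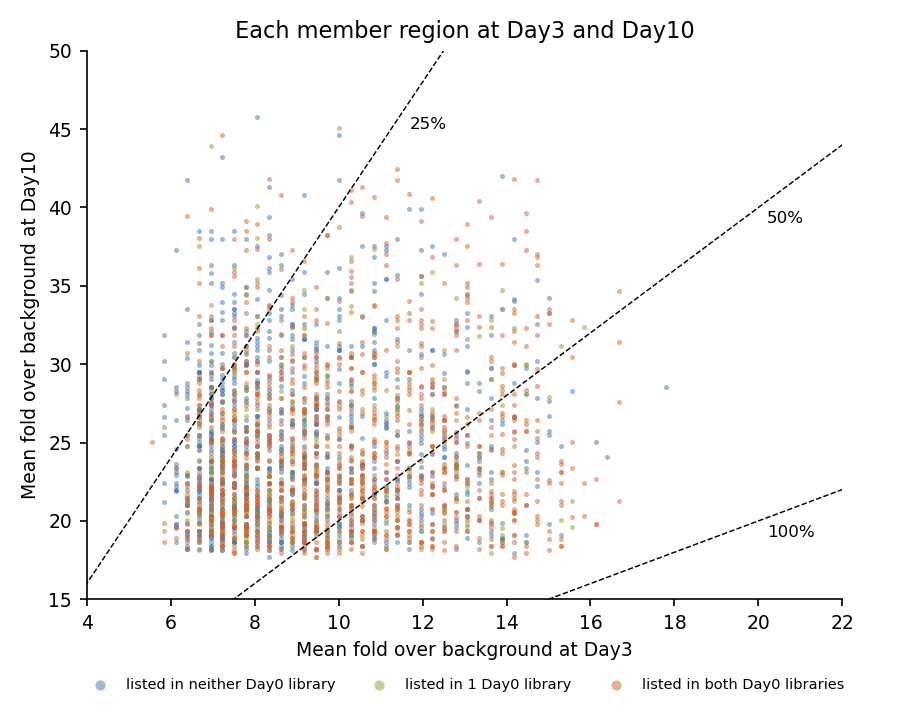
Mean fold over background of each of the 2542 members at Day3 (horizontal axis) and at Day10 (vertical axis), coloured by how many Day0 libraries list a peak there. Dashed lines mark where the Day3 fold is 25%, 50% or 100% of the Day10 fold; no member reaches the 100% line, and members of low and of high Day3 fold overlap over most of the Day10 range.

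Among gained regions, those strongest at Day10 were the most often intermediate or already strong at Day3. Of 103 gained regions with a mean Day10 rank within 5000, 45 (43.7%) were members, 42 (40.8%) were out at Day3 and 16 (15.5%) were strong at Day3. In the class from 20000 to 30000 the members made up 30.8% of 2046, and in the class from 40000 to 50000 24.9% of 2129. The share out at Day3 rose from 40.8% to 73.7% over the same classes. The shares of the Day3 states thus shifted with Day10 strength, although every class held regions of each state. Within the members the Day3 fold itself hardly changed with Day10 rank. The rule used the Day3 and Day10 ranks, and no test was made.

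**Figure D3:**
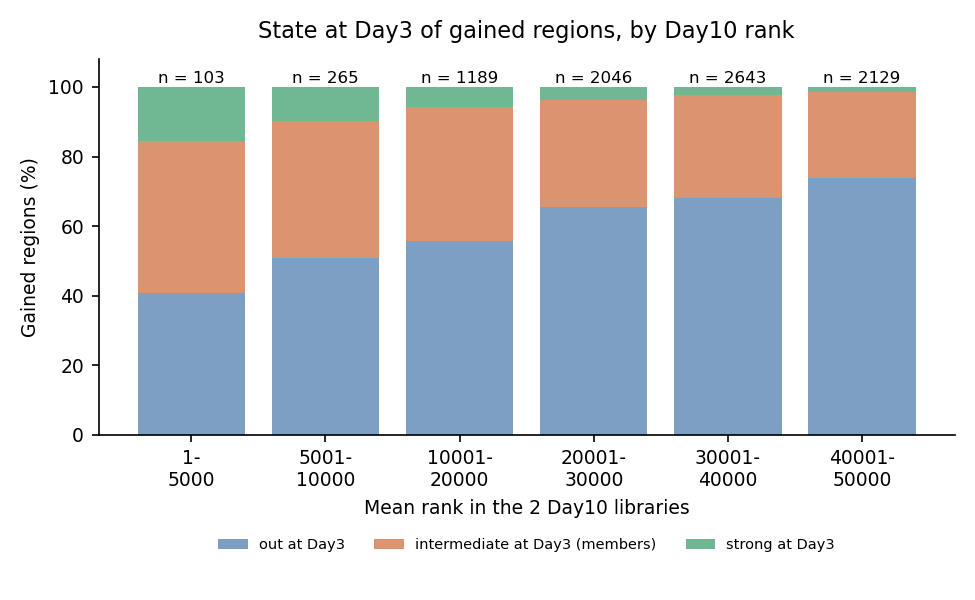
Share of gained regions (vertical axis, percent) that were out, intermediate or strong at Day3, in 6 classes of mean rank in the Day10 libraries (horizontal axis), with the number of gained regions above each bar. The share of members falls from 43.7% in the first class to 24.9% in the last.

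A weak Day0 peak often preceded the intermediate state. Of the members, 1171 (46.1%) were listed in both Day0 libraries, 291 (11.4%) in 1 and 1080 (42.5%) in neither. Regions that were out at Day3 were listed in both Day0 libraries in 11.04% of cases, and regions strong at Day3 in 69.6%. Read the other way, members were 59.2% of the 1979 gained regions listed in both Day0 libraries, 45.8% of the 635 listed in 1, and 18.7% of the 5761 listed in neither. The Day3 states were thus ordered by the presence of a Day0 peak, all of it below rank 100000. Within the members, the median Day3 fold was 8.62, 9.17 and 9.73 for 0, 1 and 2 Day0 libraries listed, whereas the median Day10 fold was 23.8, 22.9 and 23.4 and showed no such order. The rule used the same Day0 and Day3 libraries, and no test was made.

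To read the pattern in libraries that did not choose it, regions were rebuilt and selected from the 3 replicate 1 libraries alone and then looked up in the 3 replicate 2 libraries. This selection gave 2690 of 70755 regions. In the replicate 2 libraries 1880 of them (69.9%) met the same rule again, against 3.47% of all regions. A further 279 (10.4%) were out at Day3 there, 78 (2.90%) were strong at Day3, and 452 (16.8%) missed another limit, 209 of them with a Day0 peak within the 100000 strongest and 268 with a Day10 peak past 50000. More changes of class thus came at the Day0 and Day10 limits than at the Day3 limits. A Day3 fold between the Day0 and the Day10 fold, rising, with an unlisted peak counted as 0, was found in 2571 (95.6%) of the selected regions, against 17.2% of all regions.

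Median folds in the replicate 2 libraries, which the selection had not seen, were 9.45 at Day3 and 23.0 at Day10, and 6.36 over the 1535 regions listed at Day0. With the roles exchanged, 1891 of 2763 regions (68.4%) met the rule again, against 3.43% of all regions, and 95.9% rose at both steps, against 17.3%. The step pattern was therefore found again in the other libraries of the same days in both directions. Libraries of a day share any handling particular to that day.

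The strongest members show the size of the change. By the rule for named regions these are the 10 with the best mean Day10 rank, and the first lay on chromosome 17 from 32011996 to 32013413. Neither Day0 library listed a peak there; it had a fold of 7.78 and 8.34 at Day3, and of 45.1 and 46.5 at Day10. Its Day3 peak was 116 and 132 bases wide and its Day10 peak 1409 and 1354 bases, so a narrow, weak peak at day 3 was followed by a much wider one.

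The second, on chromosome 11 from 100577674 to 100579872, was listed at Day0 in replicate 2 alone, with a fold of 4.04. Its fold was 10.6 and 9.45 at Day3, followed by 45.6 and 44.6 at Day10. On chromosome 4 from 114635966 to 114637891 a weak peak was listed in every library, and the fold went from 4.08 and 4.62 at Day0 over 7.78 and 6.67 at Day3 to 44.1 and 45.1 by Day10. In both regions the Day3 values lay much nearer to Day0 than to Day10.

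On chromosome 19 from 47401774 to 47404219 the fold was 8.90 and 11.1 at Day3, before 43.7 and 45.5 at Day10, with nothing listed at Day0. On chromosome 14 from 25679298 to 25681318 it was 6.12 and 7.78 at Day3 before 43.7 and 44.2 in the Day10 libraries, and a Day0 peak was listed in replicate 1 alone at 4.66. The region on chromosome 6 from 120231449 to 120233403 was not listed at Day0 and had 6.67 and 7.78 at Day3, and later 43.7 and 42.8 at Day10. Up to this point in the order, every member had reached less than 25% of its Day10 fold by Day3.

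Of the other 4, the region on chromosome 2 from 164715530 to 164717089 was listed in both Day0 libraries at 5.83 and 5.20, and rose over 10.6 and 12.2 to 40.3 and 44.6. The one on chromosome 6 from 4982540 to 4983457 had no Day0 peak, but already 14.5 and 13.3 at Day3, ranks 50411 and 55136 there, and 41.7 and 42.3 at Day10. A further one, on chromosome 8 from 122964160 to 122965907, had 6.99 and 6.93 at Day0, then 15.6 and 13.9 at Day3, followed by 41.3 and 42.3 at Day10. These last 2 were at 33.1% and 35.3% of their Day10 fold by Day3, the most advanced of the 10.

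**Figure D4:**
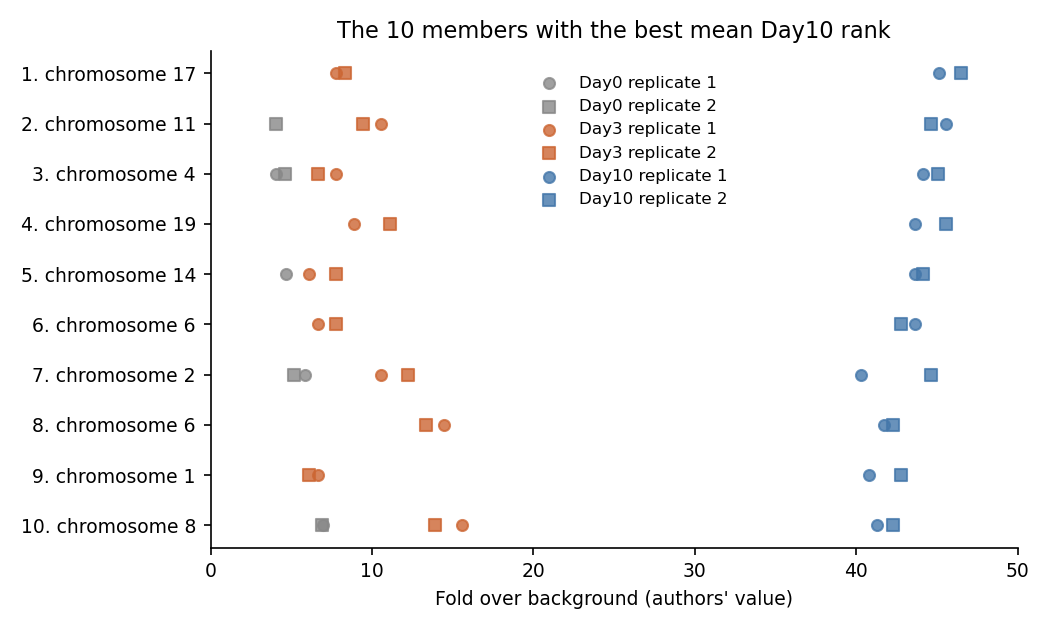
Fold over background (horizontal axis) in each library for the 10 members with the best mean Day10 rank, labelled by chromosome; circles are replicate 1, squares replicate 2, and a missing grey symbol means no listed Day0 peak. The Day3 symbols lie between 6.12 and 15.6 and the Day10 symbols between 40.3 and 46.5, with no overlap.

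The largest step from Day3 to Day10, taken as the ratio of the mean folds, belonged to a region on chromosome 1 from 87398602 to 87403745, which also ranked ninth by Day10 strength. It was not listed at Day0 and had a fold of 6.67 and 6.12 at Day3 and of 40.8 and 42.8 at Day10, so that Day3 made up 15.3% of Day10. Its Day10 peak spanned 2496 and 3175 bases, against 169 and 176 bases at Day3. Next in this order came the regions named above on chromosomes 14 and 4, at 15.8% and 16.2%. A region on chromosome 1 from 85684038 to 85685002 followed, with 4.08 and 4.04 at Day0, then 6.67 and 6.12 at Day3, before 40.3 and 38.6 at Day10. In the fifth, on chromosome 8 from 41570693 to 41571697, the Day3 libraries differed, with 5.00 and 7.23, before 35.0 and 39.5 at Day10, and only replicate 2 brought it into the class.

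Other members were named for their strength at Day3. The best Day3 ranks in the poorer library were those of a region on chromosome 3 from 90491104 to 90492086, at 50086 and 48615. Its fold was 5.24 and 5.20 at Day0, then 14.5 and 15.01 at Day3, and later 19.7 and 20.5 at Day10, so most of its rise had taken place by day 3. A region on chromosome 18 from 75978745 to 75979861 had 7.57 and 7.51 at Day0, then 18.3 and 15.01 at Day3, followed by 30.7 and 32.1 at Day10. A like Day3 fold went with different final levels: the region on chromosome 1 from 59872782 to 59873278 had 14.5 in both Day3 libraries, like the one on chromosome 3, but reached 39.3 and 37.6 at Day10.

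The last pair in this group were on chromosome 4 from 148993298 to 148993947, with 14.5 and 15.6 at Day3, before 20.1 and 25.1 at Day10, and on chromosome 1 from 131123287 to 131124064, with 17.8 and 14.5 and then 23.0 and 22.3. They were at 66.4% and 71.1% of their Day10 fold by Day3. The smallest ratio of Day10 to Day3 of all members, named after its values were seen, was that on chromosome 15 from 61588944 to 61589561, with 5.24 and 4.62 at Day0, then 14.5 and 16.1 at Day3, and later 17.8 and 19.1 at Day10. The Day3 level of the members thus ran over a wide range, and the class is a span between limits.

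Many members lay close to a limit of the rule. Within 10000 ranks of a limit lay 738 members (29.0%) by their poorer Day10 rank, 366 (14.4%) by their better Day0 rank, 477 (18.8%) by their better Day3 rank, and 288 (11.3%) by their poorer Day3 rank. Just inside the Day10 limit lay a region on chromosome 6 from 30649480 to 30650252, at 19.2 and 17.7, and just outside one on chromosome 16 from 4416711 to 4417558, at 17.8 and 20.5. At the Day0 limit the nearest members and outsiders were on chromosome 1 from 72142237 to 72142956, with 6.99 and 7.51 at Day0, and on chromosome 3 from 52537362 to 52537990, with 7.57 and 6.93. In both cases the regions on either side had much the same folds on the day of the limit.

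The lower Day3 limit parted a region on chromosome X from 157993850 to 157994239, with 6.12 and 7.23 at Day3, from one on chromosome 1 from 185486623 to 185487044, with 6.67 and 5.56. Its upper counterpart parted the member on chromosome 3 that starts at 90491104 from a region on chromosome 2 from 143873486 to 143874221, both at 14.5 and 15.01 at Day3. There the side was decided by the order of tied peaks.

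Peak width, which the rule does not use directly, followed the same steps. The median width of the members' peaks was 144 and 146 bases at Day0 where listed, 260 and 262 at Day3, followed by 582 and 602 at Day10. The mean difference between Day10 and Day3 was 331 bases, while the 2 Day3 medians lay 2 bases apart and the 2 Day10 medians 20. The exact two-sided permutation p over libraries was 0.333, the smallest that 2 against 2 allow, so the test could not decide. Strong peaks are wide in every library, and the rule asks for a strong Day10 peak and a weaker Day3 peak. The difference of 331 bases thus goes with the choice of members, and nothing is read from it alone. For this reason width was set beside that of all peaks of the same rank.

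Among Day3 ranks from 50000 to 60000 the members' median was 347 and 364 bases, against 317 and 319 for all peaks, and among ranks from 90000 to 100000 it was 206 and 216, against 187 and 189. In each of the 5 rank classes from 50000 to 100000 the members were the wider in both libraries. In the class from 40000 to 50000, with 71 and 67 members, they were the narrower, 348 and 352 bases against 373 and 375. At Day10 the order depended on rank: members ranked within 10000 were narrower than all peaks of that class, 1003 and 1057 against 1165 and 1215 bases, and those ranked from 40000 to 50000 wider, 482 and 502 against 427 and 445. Gained regions that were out at Day3 had 903 and 961 bases in the first of these classes and 462 and 475 in the last, so the members were not alone in this order at Day10. No test was made of these differences.

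**Figure D5:**
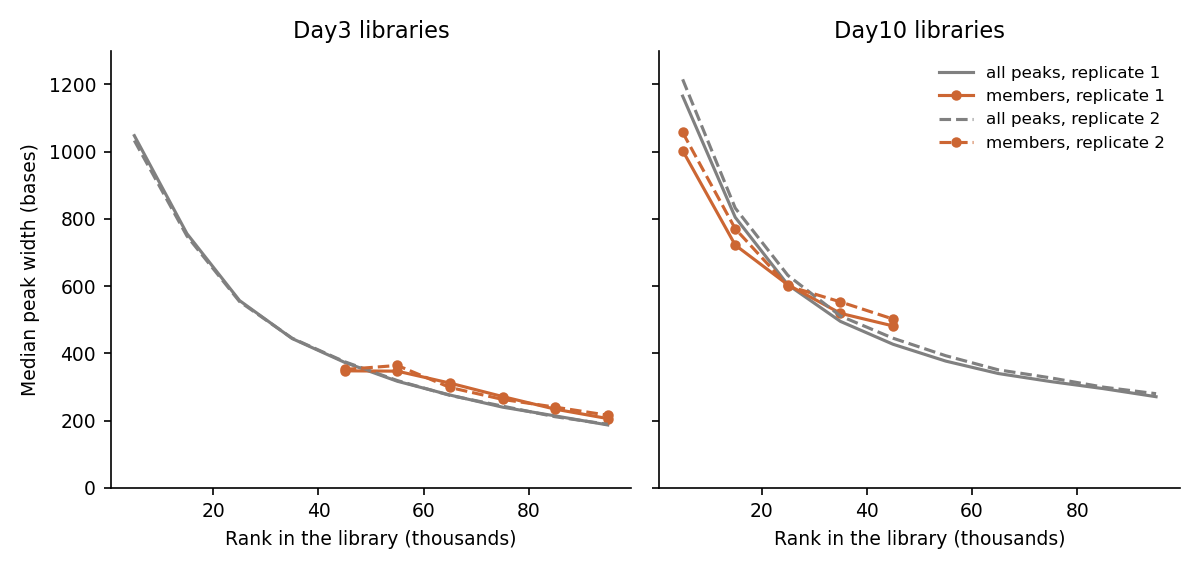
Median peak width in bases (vertical axis) by rank within the library (horizontal axis, classes of 10000) for all peaks (grey) and for the members' best peaks (orange, classes with at least 20 members), replicate 1 solid and replicate 2 dashed. At Day3 the members lie slightly above all peaks of equal rank past 50000 and below them from 40000 to 50000, and at Day10 they lie below in the first class and above in the last.

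The Day3 peak of a member was as a rule a smaller peak inside the later one. In the replicate 1 libraries the Day3 peak lay entirely within the Day10 peak in 2305 of 2542 members (90.7%), and in the replicate 2 libraries in 2320 of 2541 (91.3%). The same shares were 96.5% and 97.2% in regions out at Day3 with a listed Day3 peak, 71.8% and 76.4% in regions strong at Day3, and 28.8% and 33.8% in regions strong in all 6 libraries. The width of the members' Day3 peak was a median of 47.1% and 45.2% of the Day10 width. The Day10 summit fell inside the Day3 peak in 92.4% and 92.9% of members. The rule asks for a weaker Day3 peak and a strong Day10 peak in one region, and strong peaks are wider, so nothing is read from the nesting itself.

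Summits moved little between the days. The median distance between the Day3 and the Day10 summit was 27 bases in the replicate 1 and 28 in the replicate 2 libraries, and 67.2% and 67.7% of the pairs lay within 50 bases. Between the libraries of one day it was 18 bases at Day3 and 9 at Day10, so the shift across days was larger than between replicates but small against the width of the peaks. In regions strong in all 6 libraries the Day3 to Day10 distance was 17 and 16 bases. In regions out at Day3 that had a listed Day3 peak it was 41 and 42 bases, and the Day10 summit fell inside that Day3 peak in 71.5% and 71.4%. The median Day3 fold in regions out at Day3 was 5.00 where listed, against 8.90 in the members, and the part of peak height in these differences was not tested.

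The members were spread over all 20 chromosomes examined. They were between 2.40% of the regions of chromosome 3 and 4.27% of those of chromosome 8. As a share of the gained regions they ranged from 27.2% on chromosomes 2 and 9 to 33.8% on chromosome 8 among the autosomes. Chromosome X had few gained regions, 119 or 7.95% of its regions, and 44 of them (37.0%) were members. No chromosome thus held a large part of the members, and these shares were not tested.

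Within chromosomes, members lay near other opening regions. From midpoint to midpoint, the nearest other member was a median of 122 kb away, and 728 members (28.6%) had one within 50 kb. A member lay within 50 kb of 31.1% of the regions out at Day3 and 34.3% of those strong at Day3. For regions strong in all 6 libraries this share was 21.0%. Nearness to a member was thus not particular to the members. A gained region of any Day3 state lay within 50 kb of 61.8% of the members, against 64.3% of the regions out at Day3, 62.9% of those strong at Day3 and 45.5% of the regions strong in all 6 libraries. A region out at Day3 lay within 50 kb of 48.7% of the members, of 53.7% of the other regions out at Day3 and of 35.2% of the regions strong in all libraries. A region strong in all libraries lay within 50 kb of 82.7% of the members, as of 82.7% of the regions out at Day3. No test was made of these shares.

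When members whose edges lay at most 50 kb apart were joined, 1802 stood alone, there were 244 pairs, 45 groups of 3 and 15 of 4. The largest group held 8 members on chromosome 6 from 50993460 to 51143413, a span of 150 kb that also held 5 regions out at Day3 and 5 strong in all libraries. Its members did not move as one. The mean fold of the 2 Day3 libraries ranged from 7.51 to 16.4, and that of the 2 Day10 libraries from 18.7 to 34.0.

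Member by member in that group, the region from 51045266 to 51046379 had no Day0 peak, 14.5 and 18.4 at Day3, before 23.5 and 24.6 at Day10, which is 68.1% of the later level. Its next neighbour, from 51046722 to 51047848, had 5.24 and 6.36 at Day0, then 16.7 and 13.3 at Day3, and later 30.7 and 34.4 at Day10. The last, from 51142413 to 51143413, had no Day0 peak, 8.34 and 6.67 at Day3, followed by 31.2 and 31.6 at Day10, which is 23.9%. Within this 1 group the Day3 level thus ran from 23.9% to 68.1% of Day10, beyond the 10th and 90th percentiles of all members, 26.1% and 56.6%.

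A group of 7 members lay on chromosome 11 from 117413679 to 117550118, with 3 regions out at Day3 and 6 strong in all libraries. Its strongest member at Day10, from 117480052 to 117481279, had no Day0 peak, 9.45 and 8.34 at Day3, before 36.0 and 34.9 at Day10. The member from 117508215 to 117511179 was listed in all libraries, at 5.24 and 4.62, 7.23 in both Day3 libraries, and 29.3 and 30.2. The mean Day3 fold of the members of this group lay between 6.95 and 12.5.

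A pair of groups had 6 members. In that on chromosome 18 from 75962374 to 76060289, 5 members were listed at Day0 and only 1 region out at Day3 lay among them. There the member from 76059502 to 76060289 rose from 4.08 and 5.20 at Day0 to 14.5 and 13.9 at Day3, and later 18.7 and 19.5 at Day10, so that Day3 made up 74.2% of Day10, and the one from 75969495 to 75969933 was at 30.8%. The group on chromosome 8 from 120980345 to 121102333 lay among 9 regions strong in all libraries, 2 out at Day3 and 1 strong at Day3. Its member from 121061162 to 121063069 had 6.41 and 5.20 at Day0, then 12.2 and 10.0 at Day3, followed by 36.9 and 38.6 at Day10.

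Of the 6 groups with 5 members, the tightest spanned 46.6 kb on chromosome 5 from 113612606 to 113659173 and also held 5 regions out at Day3. Being the tightest was used to choose among the 6 after their values were seen. The Day10 fold of its last member, from 113658229 to 113659173, was 42.2 and 40.4, after 7.23 and 9.45 at Day3 and no Day0 peak. Its second member, from 113615283 to 113616080, had 5.24 and 5.20 at Day0, then 16.7 and 12.8 at Day3, before 28.3 and 31.1 at Day10. By the mean of each day's libraries, the member strongest at Day3 was not the one strongest at Day10 in this group, while in the group on chromosome 18 the region from 75978745 to 75979861 was the strongest on both days.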

How the data were processed

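The authors deposited 1 narrowPeak list for each of 6 libraries. The submitters' processing notes name Trim Galore. Aligner, peak caller, their settings and any Tn5 shift: not given in the sources used here. Each deposited peak carries a fold ratio, which was used here, besides an integer score, a summit, and -log10 p and -log10 q values. From the spacing of the authors' fold ratios, each is (pileup + 1) / (background + 1), with whole pileups within 0.01 in 100% of peaks; the background was 0.717 and 0.731 for Day0, 0.799 and 0.798 for Day3, 1.08 and 1.15 for Day10. Total reads are unknown. The notes name mm10, but the lists hold scaffold names of GRCm39; the GRCm38.p6 gene table was not used for positions.

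Peaks were ranked by fold, ties by chromosome and start, and merged where they shared at least 1 base. Where several peaks of a library overlapped a region, the best ranked gave its value. The named regions are the 10 with the best mean Day10 rank, 5 with the best poorer Day3 rank, 5 with the largest Day10 to Day3 ratio, the 5 largest groups and those next to each limit. The members, lists and rules were chosen with earlier results of these data known. Alternatives were other limits, tie orders, merging and summit rules, fixed folds, and leaving out each library. Ranking, merging and classing were tested on simulated data. Python 3.11.15, numpy 2.4.6, pandas 2.3.3 and scipy 1.17.1 were used. Replicate numbers name libraries; pairing could not be checked with 2 a day.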

Additional observations from a re-analysis of the deposited data

How the results depend on the processing

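Under the 7 other settings that kept all libraries, the number of members stayed between 1889 and 3241, against 2542. With limits of 40000 and 80000, 1889 regions qualified, and 44.1% of the members were among them; with 60000 and 120000, 3241 and 66.1%. With fixed folds, 124 gained regions were strong at Day3, against 280. Which regions are called intermediate therefore depends on the limits. The members' share of gained regions was 28.8% and 31.5% under these limits and 26.6% with fixed fold limits, against 30.4%. The Day3 level was 43.8% and 34.4% of Day10 under these limits, 43.2% as pileup over background and 24.6% as -log10 p, against 38.0%. Leaving out 1 library gave 2198 to 2844 members, a share of 26.2% to 31.9% and a Day3 level of 38.3% to 39.3%; the width difference was 321 to 341 bases. Selection in replicate 2 libraries gave 68.4%. Within 25 kb and 100 kb, 18.5% and 45.8% of members had another member, by construction.

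With a replicate block over the 2 number pairs, added after seeing the data, the width difference was 331 bases with an exact p of 0.5, the smallest it allows. Gene lists, named genes, promoter shares and motifs need an annotation or genome of the build and were not run. A median Day0 pileup of 9 limits what can be said of single regions there.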
